A study of Mus musculus with 10 samples.

Results

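The expression of 9 genes was followed in mouse kidney RNA: the 3 peroxisome proliferator-activated receptors Ppara, Ppard and Pparg, the coactivator Ppargc1a, the PPAR target genes Pdk4, Angptl4 and Ucp2, and the ketone-using enzymes Bdh1 and Oxct1. They were picked by gene symbol and are 9 of the 24062 genes in the count table. All of them passed the filter on low counts that left 15547 genes for testing. The kidneys came from adult male mice. Of the C57BL/6N animals, 4 carried a knockout (KO) of Ehhadh and 4 were wild type (WT). Single wild-type kidneys of DBA_2J and 129S2_SvPasCrl mice were sequenced beside them. Ehhadh encodes the bifunctional hydratase and dehydrogenase of peroxisomal fatty acid oxidation and is itself a textbook PPARα target. Ages in weeks, feeding state and the hour of sampling are not given in the sources used here, and whole kidney RNA mixes all its cell types, so that fewer cells of a type and less RNA per cell cannot be told apart.

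PPARs are nuclear receptors that bind DNA as heterodimers with retinoid X receptors and are activated by fatty acids and their derivatives. In the kidney PPARα is found chiefly in the proximal tubule, a segment that draws most of its energy from fatty acid oxidation. PGC-1α, the product of Ppargc1a, raises mitochondrial gene expression when it is recruited by PPARs and other receptors. Among the targets, Pdk4 slows the entry of pyruvate into the citric acid cycle, Angptl4 is a secreted inhibitor of lipoprotein lipase, and Ucp2 is a carrier of the mitochondrial inner membrane. Bdh1 interconverts the 2 main ketone bodies, and Oxct1 attaches coenzyme A to acetoacetate so that it can be burned.

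Library totals ran from 41.5 to 52.3 M counts in KO and from 19.8 to 36.0 M in WT, so the groups did not overlap in depth. The 129S2_SvPasCrl library held 51.2 M counts and the DBA_2J library 57.3 M. Levels are given as counts per M counts of the library (CPM) after TMM scaling, with the replicates numbered in the order of deposition. Counting error was small for most of the genes: the coefficient of variation that counting alone gives ranged from 0.394% for Oxct1 in KO to 4.04% for Ppard in WT, and reached 12.0% only for Pparg in WT. Ehhadh, the targeted gene, stood at 282, 327, 246 and 176 CPM in KO and at 3398, 2217, 2078 and 2185 CPM in WT. Its log2 fold change was −3.26 (SE 0.21, adjusted p = 1.86e-05, edgeR quasi-likelihood test), with 788 CPM in the 129S2_SvPasCrl kidney and 795 CPM in the DBA_2J kidney. Sample titles of the C57BL/6N animals are written either with a leading E (KO and WT replicates 3 and 4) or without it (replicates 1 and 2). The labels do not say what the letter marks, and values within each title form are given for Pparg, Pdk4, Ucp2, Bdh1 and Oxct1, and drawn for all 9 genes in the plot of fold changes.

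Of the 9 genes, 1 was called between KO and WT. Oxct1 was higher in KO, and Ppara, Ppard, Pparg, Ppargc1a, Pdk4, Angptl4, Ucp2 and Bdh1 did not pass an adjusted p of 0.05. The background share of calls was 11% of the 15547 genes (6.32% up and 4.68% down in KO), so 1 of 9 lay close to the background share. Oxct1 was also the only one of the 9 whose groups did not overlap, against 17.8% of all genes. At an unadjusted p under 0.05 the count was 2 of 9, Oxct1 and Ucp2, against 26% of all genes. The median log2 fold change of the 9 genes was 0.07, beside −0.01 for all tested genes.

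**Figure D1:**
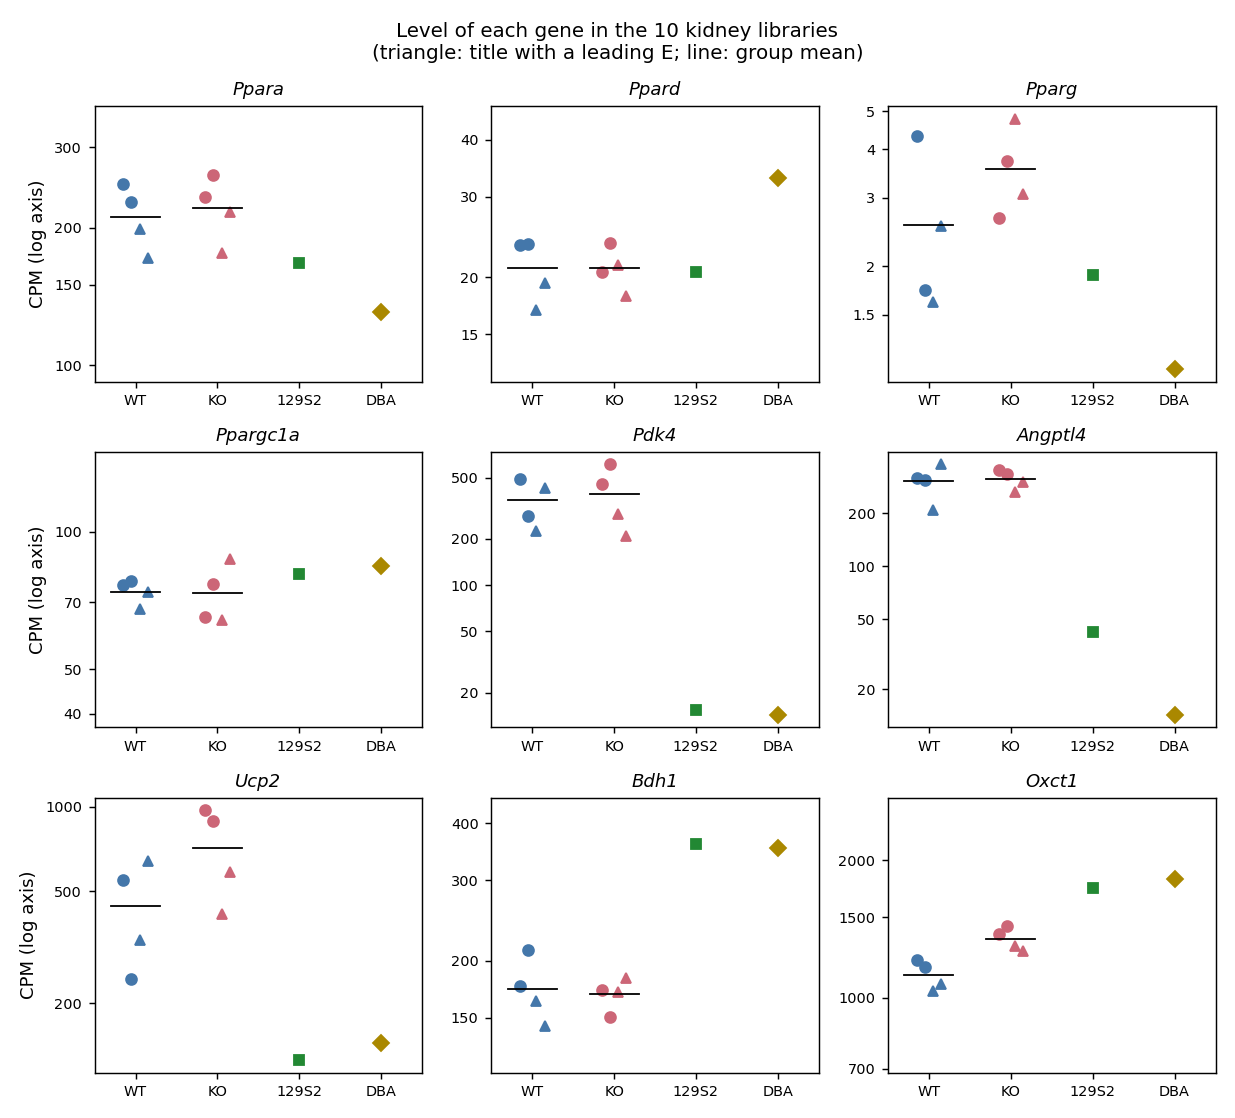
CPM of each of the 9 genes on a log axis in the 4 WT, 4 KO, 129S2_SvPasCrl (129S2) and DBA_2J (DBA) libraries. Triangles mark titles with a leading E, circles the other C57BL/6N libraries, and lines the group means. Oxct1 is the one gene whose KO points (1264 to 1436 CPM) all lie above the WT points (1034 to 1209 CPM), and Pdk4 and Angptl4 drop in both single strain libraries.

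Ppara, the receptor that drives fatty acid oxidation genes, had the highest level per length of the 3 receptors (values below). Its level was 233, 260.3, 176 and 216 CPM in the KO kidneys and 249, 228, 199 and 171 CPM in the WT kidneys. The genotypes overlapped fully, with the highest and the lowest of the 8 libraries in different groups. The log2 fold change was 0.07 (SE 0.13, 95% interval −0.22 to 0.35, adjusted p = 0.804, edgeR). The 129S2_SvPasCrl kidney had 168 CPM and the DBA_2J kidney 131 CPM, both below all 8 C57BL/6N libraries, although the first lay only just under the lowest WT library.

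Ppard, the widely expressed receptor that also controls fatty acid use, gave 20.5, 23.8, 21.3 and 18.2 CPM in KO and 23.6, 23.7, 17.0 and 19.5 CPM in WT. No order of the genotypes was visible, and the log2 fold change was 0.00 (SE 0.12, 95% interval −0.26 to 0.27, adjusted p = 0.986, edgeR). DBA_2J was the high library here, at 33.0 CPM, 1.58-fold above the WT mean. The 129S2_SvPasCrl value of 20.5 CPM lay among the C57BL/6N values.

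Pparg, the receptor of fat cell differentiation, was scarce, at 55 to 222 raw counts per C57BL/6N library. Its level was 2.66, 3.72, 4.79 and 3.06 CPM in KO and 4.32, 1.74, 1.62 and 2.53 CPM in WT. KO replicate 3 was highest, WT replicate 1 came second, and the groups overlapped. The log2 fold change of 0.51 had a wide interval, −0.15 to 1.18 (SE 0.30, adjusted p = 0.320, edgeR). A change of more than 2-fold upward therefore lay inside the interval. The difference was 0.90 with a leading E and 0.19 without one, on the log2 scale, and the test between the title forms gave an adjusted p of 0.833 (edgeR). Without WT replicate 1 the log2 fold change was 0.86 (adjusted p = 0.0687, edgeR), and without KO replicate 3 it was 0.34 (adjusted p = 0.561, edgeR). The 129S2_SvPasCrl and DBA_2J kidneys had 1.90 and 1.09 CPM, and the DBA_2J value was below all 8 C57BL/6N libraries.

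Ppargc1a stood at 65.2, 76.7, 64.2 and 86.9 CPM in KO and at 76.2, 77.8, 67.7 and 74.0 CPM in WT. The 4 WT kidneys were close together, and the KO kidneys lay on both sides of them. The log2 fold change was −0.01 (SE 0.09, 95% interval −0.22 to 0.19, adjusted p = 0.948, edgeR). The 129S2_SvPasCrl and DBA_2J values of 81.0 and 84.0 CPM were inside the range of the 8 C57BL/6N libraries.

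Genes that act with these proteins were called about as often as the 11% of all tested genes, or less. Among 15 partners and coregulators of PPARs, 1 rose and 0 fell in KO, with a median log2 fold change of 0.04. The gene that rose was Pprc1, a relative of PGC-1α, at 19.9 ± 2.07 CPM in KO against 15.3 ± 1.92 CPM in WT (SD, n = 4 each; log2 fold change 0.37, adjusted p = 0.0438, edgeR). Its call was lost in 6 of the 8 fits that left out 1 library, where the adjusted p was between 0.0757 and 0.105. Rxra, the main retinoid X receptor partner, had a log2 fold change of 0.07 and an adjusted p of 0.523 in the edgeR fit. Of 16 genes of the PGC-1α network, 1 fell, Sirt3, the mitochondrial deacetylase, from 127 ± 3.17 to 103 ± 1.70 CPM (SD, n = 4 each; log2 fold change −0.30, adjusted p = 0.00304, edgeR). The call for Sirt3 was present in all 8 fits that left out 1 library. The network's median was −0.04.

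Pdk4, the kinase that inhibits pyruvate dehydrogenase, and Ucp2 varied most between animals. The 250 bases before the start of each gene, from RefSeq on the GRCm38.p6 build, are shown because these are the targets with the widest spread. They lie at chr6:5496279-5496528 on the minus strand for Pdk4 and at chr7:100493108-100493357 on the plus strand for Ucp2. Capitals mark exact matches to the promoter motifs searched, which are a CCAAT box read on the opposite strand in Pdk4, starting 131 bases before the gene, and a GC box (GGGCGG) read on the opposite strand in Ucp2, starting 79 bases before it.
Pdk4: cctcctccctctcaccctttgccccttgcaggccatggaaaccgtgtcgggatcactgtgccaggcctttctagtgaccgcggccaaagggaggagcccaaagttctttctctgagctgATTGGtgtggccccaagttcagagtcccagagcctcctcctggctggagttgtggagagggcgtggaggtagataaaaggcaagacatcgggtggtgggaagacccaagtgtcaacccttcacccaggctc
Ucp2: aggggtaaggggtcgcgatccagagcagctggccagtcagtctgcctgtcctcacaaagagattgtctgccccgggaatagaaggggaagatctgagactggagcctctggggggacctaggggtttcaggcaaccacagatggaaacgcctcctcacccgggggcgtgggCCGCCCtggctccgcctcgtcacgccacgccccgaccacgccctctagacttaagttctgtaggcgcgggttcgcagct
The search covered both strands of windows from 250 bases before to 50 bases after the start, for 8 of the 9 genes with an entry in the RefSeq table, and compared them with 32851 promoters of the same length. The PPAR response element was taken as the DR1 element, a direct repeat of AGGTCA with 1 base between the copies. An exact match was present in 0.0396% of all promoters, and a match with at most 4 mismatches in 79.8%. The best match in Pdk4, Ucp2 and Oxct1 had 4 mismatches, and the best in any of the 8 genes, at a Bdh1 start, had 3, a number reached by 24.6% of all promoters. A single copy of AGGTCA, which also counts inside a DR1, occurred in 16.3% of promoters, and among the 8 genes in Pparg alone. CCAAT was found in 37.4% and GGGCGG in 35.7% of all promoters, TATAAA in 13.6% and CACGTG in 7.15%. These matches describe letters in the windows and no more.

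Pdk4 stood at 455, 612, 290.4 and 211 CPM in KO and at 492, 281, 225 and 432 CPM in WT. Within KO the highest library was 2.90-fold above the lowest, and within WT 2.19-fold. KO replicate 2 was the highest of the 8 and KO replicate 4 the lowest, so the whole WT range sat inside the KO range. The means were 392 ± 178 CPM in KO against 357 ± 125 CPM in WT (SD, n = 4 each), with a log2 fold change of 0.13 (SE 0.32, 95% interval −0.56 to 0.83, adjusted p = 0.837, edgeR). The difference was 0.50 in the libraries without a leading E and −0.33 in those with one, on the log2 scale, which is opposite in direction. The test of that difference between the forms gave an adjusted p of 0.775 (edgeR).

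Of 13 other pyruvate dehydrogenase genes, which include the other kinases, the phosphatases, the complex and the mitochondrial pyruvate carrier, 1 fell and 0 rose in KO, a share near the 11% called among all genes. Pdk1, another kinase of the complex, fell from 45.0 ± 0.705 to 34.3 ± 3.80 CPM (SD, n = 4 each; log2 fold change −0.39, adjusted p = 0.00996, edgeR). Pdk2, another of these kinases, had a log2 fold change of −0.01 with an adjusted p of 0.954 (edgeR).

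Angptl4 gave 349, 332, 263 and 298 CPM in KO and 316, 308, 207 and 377 CPM in WT. WT replicate 4 was highest, WT replicate 3 lowest, and the KO values lay between them. The log2 fold change was 0.04 (SE 0.15, 95% interval −0.30 to 0.38, adjusted p = 0.905, edgeR). Of the 7 tested genes of the lipoprotein lipase axis on which Angptl4 acts, beside 11% called among all tested genes, 1 fell and 0 rose. That gene was Cd36, the fatty acid transporter that is also a PPAR target, at 383 ± 15.4 CPM in KO against 608 ± 69.8 CPM in WT (SD, n = 4 each; log2 fold change −0.67, adjusted p = 0.000589, edgeR), and the call was present in all 8 fits that left out 1 library. Lpl itself had 536 CPM in KO and 717 CPM in WT, with an adjusted p of 0.195 (edgeR).

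Ucp2 had the largest log2 fold change of the 9 genes, without passing the test. Its level was 973, 888, 415 and 585 CPM in KO and 548, 244, 336 and 642 CPM in WT. KO replicates 1 and 2 stood above all WT kidneys, KO replicates 3 and 4 among them. The means of 715 ± 260.5 and 442 ± 184 CPM (SD, n = 4 each) gave a log2 fold change of 0.69 (SE 0.31, 95% interval 0.01 to 1.38, adjusted p = 0.188, edgeR).

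The difference in Ucp2 lay in the libraries without a leading E, where it was 1.35 on the log2 scale; in those with an E it was 0.09. A test of the difference between the forms gave an adjusted p of 0.755 (edgeR). In that test 0% of all genes were called after adjustment and 6.46% had an unadjusted p under 0.05, as did 2 of the 9 genes, Ucp2 and Bdh1. Fitted alone, the 2 KO and 2 WT libraries without an E gave a log2 fold change of 1.24 for Ucp2 with an adjusted p of 0.00886 (edgeR). The fit of all 8 libraries gave 0.188 (edgeR). In these 4 libraries the leading number of the title differs between KO and WT. A difference tied to that number cannot be told apart from genotype there.

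Macrophages also express Ucp2. Of 7 tested macrophage markers 1 rose (Cd74), 1 fell (Csf1r) and 5 were not called in KO, beside 11% called among all tested genes. Their summed level was 238 to 398 CPM in KO and 200.1 to 233 CPM in WT, with none of the 7 at 0 in any library. The most abundant markers weigh most in that sum, so it does not stand for each of the 7. The median log2 fold change of the markers was 0.14. It was −0.02 in the libraries without a leading E and 0.30 in those with one. The part of macrophage RNA in the Ucp2 values was not tested. The other uncoupling proteins and their nearest carriers, 7 genes in all, gave 0 calls in either direction in the edgeR fit. The smallest adjusted p among them were 0.0581 for Slc25a4, the adenine nucleotide carrier (log2 fold change 0.20), and 0.0933 for Slc25a30 (log2 fold change 0.43) in the edgeR fit, and these 2 genes were also the only ones of the 7 at an unadjusted p under 0.05. With title form as a term both were called higher (adjusted p = 0.0497 and 0.0126, edgeR), as they were by DESeq2 and in the libraries without a leading E, while limma called 0.

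**Figure D2:**
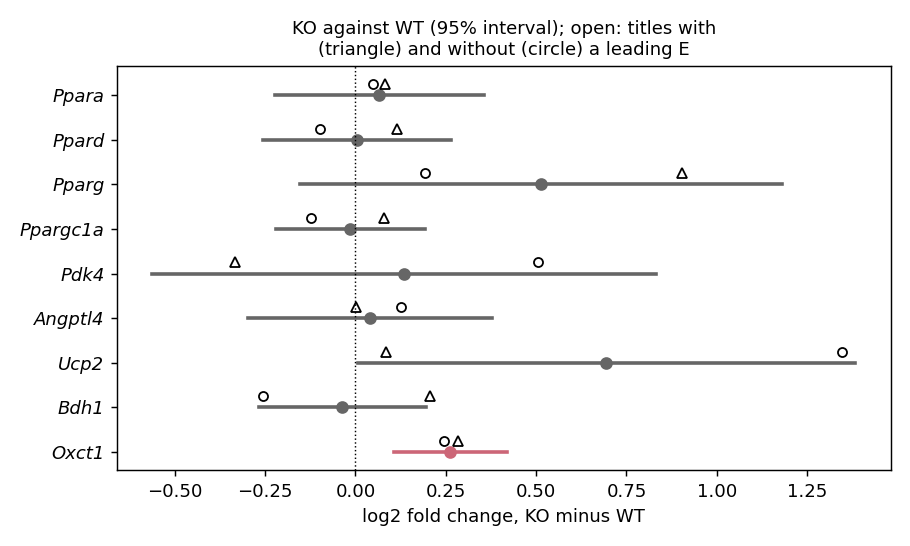
Log2 fold change of KO over WT for the 9 genes (x axis), with edgeR estimates as filled circles and their 95% intervals as lines. Open symbols are the mean differences within libraries with (triangles) and without (circles) a leading E in the title. The Oxct1 interval, 0.11 to 0.42, is the one drawn in colour because it passed the adjusted threshold, and the open symbols lie farthest apart for Ucp2, at 0.09 and 1.35.

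Bdh1, the mitochondrial β-hydroxybutyrate dehydrogenase, had 173, 151, 171 and 183 CPM in KO and 176, 211, 163 and 144 CPM in WT. WT replicates 2 and 4 were the highest and lowest of the 8. The log2 fold change was −0.04 (SE 0.11, 95% interval −0.27 to 0.19, adjusted p = 0.869, edgeR). By title form the difference was −0.26 without and 0.21 with a leading E, and the test between the forms gave an adjusted p of 0.698 (edgeR). Bdh1 lies 9.63 Mb from Ehhadh on chromosome 16, the chromosome of the targeted gene. Within 20 Mb of Ehhadh 13.2% of 304 tested genes were called, beside 11% of the others.

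Oxct1, the enzyme that commits acetoacetate to oxidation, was at 1382, 1436, 1298 and 1264 CPM in KO and at 1209, 1168, 1034 and 1071 CPM in WT. Every KO kidney was above every WT kidney, by a small margin. The means were 1345 ± 78.5 and 1121 ± 81.5 CPM (SD, n = 4 each), a ratio of 1.20, with a log2 fold change of 0.26 (SE 0.07, 95% interval 0.11 to 0.42, adjusted p = 0.0377, edgeR). The size was alike in both title forms, 0.25 without and 0.28 with a leading E. The call was less stable than the size. It was lost in 6 of the 8 fits that left out 1 library, with adjusted p of 0.0514 to 0.110, and was present only without WT replicate 1 (adjusted p = 0.0359, edgeR) and without KO replicate 4 (adjusted p = 0.0270, edgeR).

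The first exon of Oxct1 shares 422 bases with BC037032, a gene on the opposite strand. The reads were counted without strand, so that reads there went to both genes. BC037032 rose in KO, from 25.3 ± 3.97 to 40.0 ± 3.56 CPM (SD, n = 4 each; log2 fold change 0.66, adjusted p = 0.00383, edgeR), but its counts were only 1.88% to 3.40% of those of Oxct1 in any library. With all BC037032 counts taken off Oxct1, the log2 fold change was 0.25 with an adjusted p of 0.0443 (edgeR), an alternative chosen after the data were seen. An exon of BC037032 at chr15:4026019-4027406 on the minus strand spans all 250 bases before the Oxct1 start, which are at chr15:4026178-4026427 on the plus strand of GRCm38.p6 and are shown for that overlap. They hold none of the motifs searched, and no letter is in capitals.
Oxct1: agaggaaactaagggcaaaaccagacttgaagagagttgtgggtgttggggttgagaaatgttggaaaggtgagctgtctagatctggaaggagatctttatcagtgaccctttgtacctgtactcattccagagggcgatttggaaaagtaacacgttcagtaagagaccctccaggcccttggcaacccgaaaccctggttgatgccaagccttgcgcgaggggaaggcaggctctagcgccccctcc
The summed level of 10 proximal tubule markers was 15541 to 18414 CPM in KO and 18631 to 19437 CPM in WT, with 3 of 10 markers lower and 0 higher, while Oxct1 was higher in KO. In KO 6 of 10 tubular injury markers rose, with sums of 1263 to 2100.2 CPM in KO and 1007 to 1364 CPM in WT. Markers of some other cell types fell too, beside 11% of all tested genes called in either direction. All 7 principal cell markers were lower, with sums of 435 to 476 CPM in KO and 644 to 952 CPM in WT, as were 4 of 4 smooth muscle markers (56.8 to 63.4 CPM and 82.2 to 93.0 CPM), 3 of 5 intercalated cell markers (131 to 156 CPM and 184 to 225 CPM) and 2 of 3 distal convoluted tubule markers (772 to 979.9 CPM and 1013 to 1327 CPM). Other cell types showed few calls or none. Of the thick ascending limb markers 1 of 4 was lower, and of the endothelial markers 1 of 6. Among podocyte and fibroblast markers 0 of 4 and 0 of 6 were called. The part of these markers in the Oxct1 difference was not tested.

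The other ketone genes went the other way or did not pass. Of 12 genes for ketone synthesis, breakdown and transport, 0 rose and 3 fell in KO, with a median log2 fold change of −0.14. Among all tested genes 6.32% rose and 4.68% fell. Acat1, the mitochondrial acetoacetyl-CoA thiolase that follows Oxct1, fell by 0.29 on the log2 scale (adjusted p = 0.0239, edgeR), a call lost in 3 of the 8 fits that left out 1 library. Slc16a7, a transporter of pyruvate and other monocarboxylates, fell by 0.54 (adjusted p = 0.00200, edgeR) and passed in all 8.

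Among 35 other PPARα targets, 1 rose and 4 fell in KO, and 30 were not called, a share near the 11% called among all tested genes. Their median log2 fold change was −0.10. Plin2, the lipid droplet coat protein, rose by 1.11 on the log2 scale, from 375 ± 141 to 807 ± 326 CPM (SD, n = 4 each; adjusted p = 0.0377, edgeR), and the call was lost in 5 of the 8 fits without 1 library. Cd36 fell as given above. Slc27a1, a fatty acid transporter, fell by 0.26 (adjusted p = 0.0349, edgeR) and Acaa1b, a peroxisomal thiolase, fell by 0.46 (adjusted p = 0.0359, edgeR), with calls lost in 7 and 6 of those 8 fits. Of the 5 calls, that of Cd36 alone was present in all 8. The share near 11% is that of the main fit. By title form, the list gave 5 higher and 7 lower without a leading E, beside 924 higher and 799 lower of 15540 genes. With a leading E it gave 0 higher and 1 lower, beside 92 and 51 of 15792 genes. With title form as a term in the fit it gave 1 higher and 7 lower, beside 1157 and 893 of 15547 genes.

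Of 16 glucocorticoid and fasting genes 2 passed, in opposite directions, a share near the 11% called among all tested genes. Klf9, a glucocorticoid-induced transcription factor, rose by 0.50 on the log2 scale (adjusted p = 0.0387, edgeR), and Txnip, a regulator of glucose uptake, fell by 0.34 (adjusted p = 0.0295, edgeR). The first call was lost in 5 and the second in 6 of the 8 fits without 1 library.

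Between animals of 1 genotype the 9 genes differed widely in spread. The pooled SD of log2 CPM within genotype was 0.61 for Pdk4, 0.61 for Ucp2 and 0.52 for Pparg, higher than in 94.2%, 94.1% and 91.1% of tested genes. The median over all tested genes was 0.15. Of the 9 genes 3 were thus among the 10% with the widest spread. For Pdk4 and Ucp2 counting error was under 1% of the level in each genotype, while for Pparg it was 7.70% in KO and 12.0% in WT.

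Angptl4 (0.29), Ppara (0.24), Ppard (0.20), Bdh1 (0.18) and Ppargc1a (0.16) followed, each above that median. Oxct1 had the narrowest spread, 0.10, higher than in 26.0% of tested genes. Spread was not alike in the genotypes for every gene. Ppargc1a had an SD of 0.21 in KO and 0.09 in WT, and Angptl4 an SD of 0.18 in KO and 0.37 in WT. Pdk4 had 0.68 and 0.53, and Ucp2 0.57 and 0.64, in the same order. These differences in spread were not tested, and each SD includes any difference between the title forms.

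**Figure D3:**
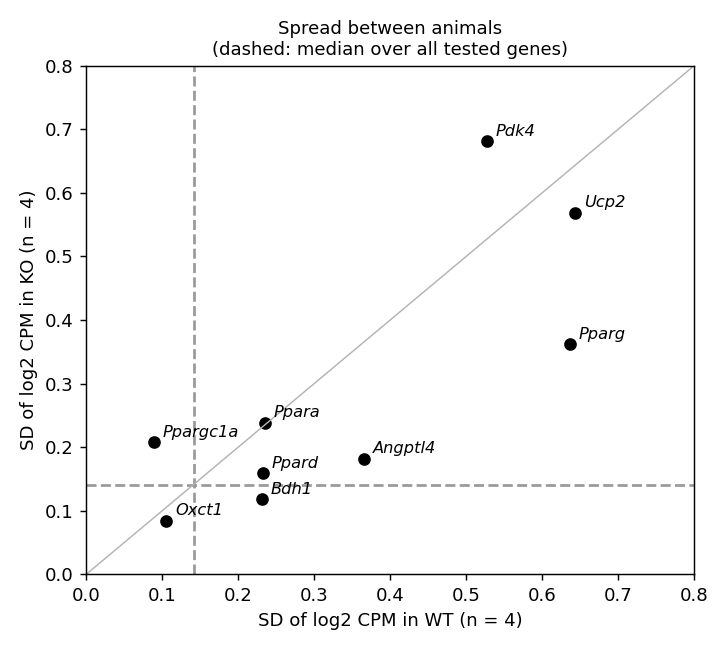
SD of log2 CPM among the 4 KO kidneys (y axis) against that among the 4 WT kidneys (x axis) for each of the 9 genes. The dashed lines are the medians over all tested genes, 0.141 in WT and 0.140 in KO, and the solid line marks equality. Pdk4 and Ucp2 lie far out on both axes, and Oxct1 below both dashed lines.

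The animals at the top were not the same for every gene. KO replicates 1 and 2 were 2 of the 3 highest of all 10 libraries for Pdk4, Angptl4 and Ucp2, with WT replicate 1 or WT replicate 4 as the other one. These are also the KO libraries without a leading E, and both lay above both KO libraries with one for these 3 genes. Spread between KO animals and title form therefore cannot be told apart there. KO replicate 4 was the highest of the 10 for Ppargc1a and the lowest C57BL/6N library for Pdk4. Ppara was highest in KO replicate 2 and Pparg in KO replicate 3.

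Set against each other per length, as CPM per kilobase of exon (RPKM), the levels formed a clear order. In WT it was Oxct1 at 322 ± 23.4, Angptl4 at 159 ± 37.1, Ucp2 at 107 ± 44.6, Pdk4 at 104 ± 36.3, Bdh1 at 52.1 ± 8.49, Ppara at 28.1 ± 4.49, Ppargc1a at 11.4 ± 0.686, Ppard at 6.50 ± 1.02 and Pparg at 1.29 ± 0.628 RPKM (SD, n = 4). Angptl4 and Ucp2, and Ucp2 and Pdk4, overlapped between libraries, and no other neighbours did. In KO the order was the same except that Ucp2, at 173 ± 63.0 RPKM, came before Angptl4, at 163 ± 20.1 RPKM, and the same 3 genes overlapped.

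In the single strain kidneys the order was another. Oxct1 remained first, at 499.8 RPKM in 129S2_SvPasCrl and 522 RPKM in DBA_2J, but Bdh1 was second, at 108 and 106 RPKM. Pdk4 had dropped to the eighth place, at 4.48 and 4.15 RPKM, below all 3 of Ppara, Ppargc1a and Ppard.

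Each of the other strains was represented by 1 animal, so its values have no replicate and no test. Pdk4 stood at 15.5 CPM in 129S2_SvPasCrl and 14.3 CPM in DBA_2J, 23.1-fold and 24.9-fold below the WT mean of 357 CPM. Only 19 and 18 of the 15547 tested genes lay further below WT in these libraries. The lowest C57BL/6N library had 211 CPM.

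Angptl4 stood at 42.5 CPM in 129S2_SvPasCrl, 7.11-fold below the WT mean of 302 CPM, and at 14.4 CPM in DBA_2J, 21.0-fold below it. Ucp2 stood at 125 and 145 CPM, 3.53-fold and 3.06-fold below the WT mean. All 3 targets were therefore below every KO and WT library in both strains. Bdh1 and Oxct1 were placed the other way. Bdh1 had 359.8 and 353 CPM, 2.07-fold and 2.03-fold above the WT mean of 174 CPM. Oxct1 had 1740.2 and 1816 CPM, 1.55-fold and 1.62-fold above the WT mean.

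In counts, 4 of the 9 genes (Ppara, Pdk4, Angptl4 and Ucp2) were below all 8 C57BL/6N libraries in both strains, beside 15.5% of all tested genes, and 2 (Bdh1 and Oxct1) were above all 8, beside 15.7%. At least 2-fold below the WT mean were 3 of 9 in 129S2_SvPasCrl, beside 5.97% of all genes, and 4 of 9 in DBA_2J, where Pparg was added, beside 8.23%. At least 2-fold above it was 1 of 9, Bdh1, in each strain, beside 3.81% and 4.61%. In both strains together, 3.18% of all genes were at least 2-fold lower and 1.97% at least 2-fold higher. The median of all tested genes moved by 0.01 in 129S2_SvPasCrl and −0.02 in DBA_2J on the log2 scale.

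**Figure D4:**
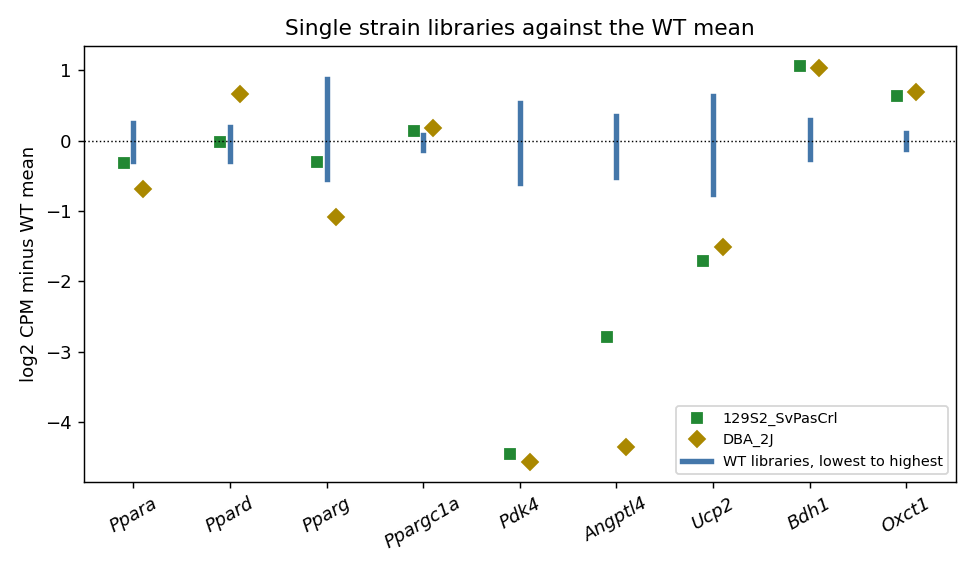
Log2 CPM of the 129S2_SvPasCrl (squares) and DBA_2J (diamonds) libraries minus the WT mean, for the 9 genes. Blue bars span the lowest to the highest WT library. Pdk4 (−4.46 and −4.56) and Angptl4 (−2.79 and −4.36) lie far below the WT bars, and Bdh1 (1.07 and 1.04) and Oxct1 (0.64 and 0.70) above them.

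The other PPARα targets were placed like Pdk4 and Angptl4. Of the 35 genes, 29 were below all 8 C57BL/6N libraries in both strains, beside 15.5% of all tested genes, and 1, Cd36, was above, beside 15.7%. At the same time 20 were at least 2-fold lower than the WT mean in both, beside 3.18% of all tested genes. The list's median difference was −1.24 in 129S2_SvPasCrl and −1.59 in DBA_2J on the log2 scale. Cyp4a14, a fatty acid ω-hydroxylase, had 2127 CPM in KO and 1705 CPM in WT on average, but 6.03 CPM in 129S2_SvPasCrl and 8.03 CPM in DBA_2J. Plin2 had 25.3 and 15.9 CPM there. Not every target dropped so far: Cpt1a, the gatekeeper of mitochondrial fatty acid import, had 729 CPM in WT and 580.0 and 513 CPM in the strains.

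The remaining lists are given by the same counts, and differences between lists were not tested. Among all tested genes 15.5% were below all 8 C57BL/6N libraries in both strains and 15.7% were above them, and several of the lists lay near these shares. In both strains, 2 of the 12 ketone genes were below all 8 C57BL/6N libraries (among them the monocarboxylate transporter Slc16a1) and 5 were above them, among them Acat1 and Slc16a7. Of the 13 pyruvate dehydrogenase genes 1 was below and 7 were above, among them Pdk3 at 56.4 and 70.4 CPM beside 37.3 CPM in WT. Of the 15 partners and coregulators 1 was below and 4 above, and of the 16 genes of the PGC-1α network likewise 1 and 4. Of the 7 uncoupling protein relatives 3 were below and 0 above, 2 of the 7 lipoprotein lipase axis genes were below and 2 above, and 3 of the 16 glucocorticoid and fasting genes were below and 0 above. In DBA_2J alone, 6 of those 16 genes were at least 2-fold below the WT mean, beside 8.23% of all tested genes, with a list median of −0.43. There the uncoupling protein relatives had a median of −0.64, both medians being on the log2 scale.

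**Figure D5:**
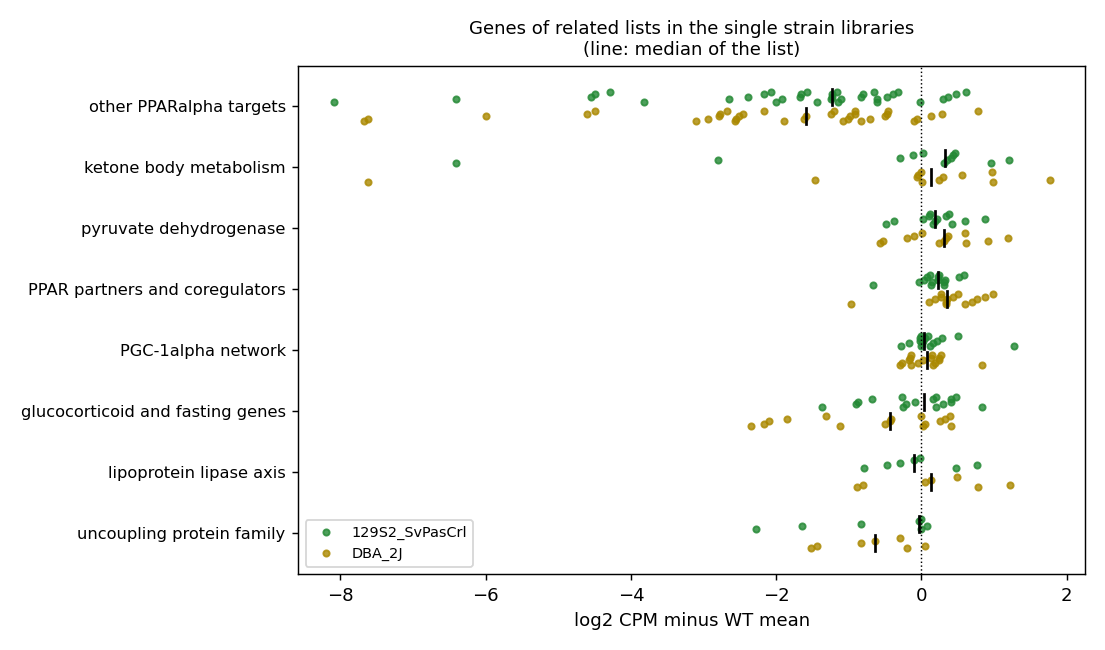
Log2 CPM minus the WT mean (x axis) for the tested genes of 8 lists (y axis) in the 129S2_SvPasCrl (green) and DBA_2J (brown) libraries. Each dot is a gene and the black lines are list medians. The medians of the other PPARα targets, −1.24 and −1.59, are the farthest left.

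Fat cells express many of the same genes, and their markers were also low in the single strain kidneys. Of 9 adipocyte markers 0 were called between KO and WT, beside 11% of all tested genes. Below all 8 C57BL/6N libraries in both strains were 8 of the 9, beside 15.5%. Their summed level was 92.1 to 217 CPM in KO and 90.6 to 258 CPM in WT, but 53.6 CPM in 129S2_SvPasCrl and 49.1 CPM in DBA_2J. None was at 0 in any library. Adiponectin (Adipoq) averaged 8.44 CPM in KO and 8.36 CPM in WT, with 2.23 and 2.12 CPM in the strains. Of 7 macrophage markers 5 were also below all 8 libraries in both strains and 1 was above, beside 15.5% and 15.7% of all genes. Their median difference to the WT mean was −0.99 in 129S2_SvPasCrl and −0.61 in DBA_2J on the log2 scale. Their summed level, in which abundant markers weigh most, was 303 CPM in 129S2_SvPasCrl and 206 CPM in DBA_2J. In the C57BL/6N kidneys it was 238 to 398 CPM in KO and 200.1 to 233 CPM in WT. Of the 33 PPARα targets that are in no marker list, 27 were below all 8 in both strains, beside 15.5% of all tested genes. The proximal tubule marker sum was 19859.8 CPM in 129S2_SvPasCrl and 21002 CPM in DBA_2J, above the C57BL/6N kidneys. The part of fat or macrophage RNA in the members' values was not tested.

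Genes whose log2 CPM followed a member most closely over the 10 libraries were found among 13763 genes with a mean of at least 1 CPM, as the 3 with the highest Pearson r. The 2 strain libraries weigh heavily in these values, so r within genotype over the 8 C57BL/6N libraries is given beside them. For Pdk4 they were Cyp4a14 (r = 0.987, within genotype 0.816), the histone gene Hist1h2bn (0.987, 0.775) and the acyl-CoA thioesterase Acot1 (0.986, 0.797). For Angptl4 they were Abcc6, Col16a1 and the carnitine-acylcarnitine carrier Slc25a20, with r of 0.986, 0.984 and 0.984 and lower values within genotype, 0.560, 0.412 and 0.575. Cyp4a14, Acot1 and Slc25a20 are on the list of other PPARα targets.

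Ucp2 was followed by Tmx4 (r = 0.966, within genotype 0.972), Slc35e3 (0.962, 0.834) and its relative Ucp3 (0.950, 0.861), though Ucp3 was scarce, with means of 1.95 CPM in KO and 1.62 CPM in WT. Bdh1 was followed by Abat, the GABA transaminase (0.985, 0.947), Usp37 (0.981, 0.846) and Sypl (0.979, 0.783). Oxct1 was followed by the histone gene Hist1h4h (0.974, 0.874), Vamp3 (0.968, 0.682) and Osbp (0.967, 0.559).

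For the receptors and the coactivator the nearest genes were not PPARα targets of the list. Ppara was followed by Ikbkap (r = 0.969), Gys1, the muscle-type glycogen synthase (0.959), and Dclre1b (0.957), with 0.930 to 0.938 within genotype. Ppard was followed by Kat2b (0.951, within genotype 0.871), Tmx1 (0.946, 0.915) and Hbs1l (0.945, 0.880). Pparg was followed by Socs2 (0.935, 0.880) and Sowahb (0.918, 0.832), and Ppargc1a by Lrig3 (0.928, 0.909), Pcmtd1 (0.926, 0.936) and Slc38a10 (0.916, 0.892). These likenesses are descriptions over few libraries.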

How the data were processed

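Per the labels' protocols, polyA RNA of 10 kidneys gave single-end reads. The submitters' processing notes name STAR, featureCounts, edgeR and the mm10 (GRCm38) build. Raw counts per gene were made by the authors with featureCounts 1.5.2, per the file headers, from primary alignments over exons of the UCSC mm10 annotation, with reads assigned to every overlapping gene and no strand option. The deposited table of normalized log2 values holds 13645 genes, all 9 members included, and equals voom's log2 CPM with TMM scaling to within 4.97e-14; it was not used further. The joined matrix equals the single tables in all 10 libraries.

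Here the deposited counts of the 8 C57BL/6N libraries were filtered (filterByExpr), TMM-scaled and tested with edgeR 4.0.16 (R 4.3.3; glmQLFit, glmQLFTest) and called at a Benjamini-Hochberg adjusted p under 0.05 over 15547 genes. CPM values were scaled over all 10 libraries, and log2 CPM used a prior count of 2. The single strain libraries stayed out of the fit. Alternatives used RLE scaling, no scaling, no filter, DESeq2 1.42.0, limma 3.58.1, title form, equal depth and omission of each library. The edgeR steps were tested on simulated data. The labels do not say that replicates are separate litters or days, and p-values set each difference against the spread between these animals. The leading number in the C57BL/6N titles was never shared between KO and WT, and the labels do not say what it marks. A difference tied to that number could not be separated from genotype.

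The members, lists and tests were chosen with earlier results of these data known. Named genes are Ehhadh, the members, up to 4 called genes of each list by smallest p (the 2 smallest where none was called), and the 3 genes most like each member. Rxra, Pdk2, Lpl, Plin2, Cyp4a14, Cpt1a, Slc16a1, Pdk3, Adipoq and BC037032 were named after their values were seen. Of 210 list symbols 208 are in the table. Some genes that the rule names are not reported here. Lists hold genes of overlapping function, and some genes are on several.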

Additional observations from a re-analysis of the deposited data

How the results depend on the processing

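No paired analysis was possible because the labels give no replicate numbers; the numbers used here follow the order of deposition. Over all genes the count of calls was 1710, between 1005 and 1638 when 1 library was left out, 143 in the 4 libraries with a leading E in the title and 1723 in the 4 without; the cause of that gap was not tested. The count of members called was 1, between 0 and 1 when 1 library was left out, 0 in the libraries with a leading E and 2 in those without. Oxct1 was 0.28 (adjusted p = 0.192, edgeR) with a leading E alone and 0.23 to 0.31 when 1 library was left out; it was called in 11 of 18 alternatives. Ucp2 was called in 1 of 17, at 1.24 without a leading E.

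Below the threshold, 5 members changed sign outside the fits that left out 1 library. Ppard was −0.093 without a leading E and −0.044 at equal depth. Ppargc1a was 0.0091 without scaling, 0.090 with a leading E and 0.0045 at equal depth. With a leading E, Pdk4 was −0.39, Angptl4 −0.062, Bdh1 0.20 and the target Cyp4a14 −0.44, which is no member. With 1 library left out the log2 fold change ran from −0.024 to 0.16 for Ppara, −0.081 to 0.076 for Ppard, −0.10 to 0.046 for Ppargc1a, −0.17 to 0.34 for Pdk4, −0.10 to 0.16 for Angptl4 and −0.12 to 0.075 for Bdh1; Pparg (0.34 to 0.86) and Ucp2 (0.50 to 0.93) kept their sign. The cause was not tested. All 108 recomputed strain values moved by less than 1 SD of WT, and 2 changed sign. Pparg is limited by its 55 to 222 counts.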
